A study of Rattus norvegicus with 6 samples.

Results

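The opioid peptide precursors and their receptors were examined in the rostral ventrolateral medulla, a site in the brainstem that feeds excitatory drive to sympathetic nerves and so helps to hold arterial pressure. The members were the 7 genes Penk, Pdyn, Pomc, Oprm1, Oprd1, Oprk1 and Oprl1, of 13682 genes named in the deposited table. Every probe set whose deposited gene symbol was exactly 1 of these names was used, which gave 13 of 31099 probe sets. The tissue came from 3 spontaneously hypertensive rats (SHR), a strain that develops high blood pressure, and from 3 rats of the strain spelled Wistar-Kyoko (WKY) in the labels, taken here as Wistar-Kyoto, its usual normotensive comparison. All rats weighed between 250 and 350 g and were untreated, each of the 6 Affymetrix Rat 230 2.0 arrays held tissue of 1 animal, and age and sex are not given in the sources used here. The dissected piece holds neurons, glia and vessels together, so fewer cells of a type and less RNA per cell cannot be told apart.

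The opioid peptides are cut from large precursor proteins. Proenkephalin gives the enkephalins, prodynorphin the dynorphins, and proopiomelanocortin beta-endorphin together with corticotropin and the melanocortins. The mu, delta and kappa receptors and the nociceptin receptor couple to inhibitory G proteins that lower cyclic AMP, open potassium channels and close calcium channels, and opioids given into this region are known to depress sympathetic outflow.

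Opioid precursor and receptor transcripts were not shown to differ between SHR and WKY. Limma called 0 of the 8 member probe sets that passed the detection filter (Present on at least 3 of the 6 arrays) at an adjusted p under 0.05, where it called 0.924% of all 20790 kept probe sets. None of the 8 had an unadjusted p under 0.05 either, against 9.52% of all kept probe sets, and robust moderation of the variances also called 0. Adjusted p over all kept probe sets lay between 0.568 and 0.99 for the 8. All 8 differences, SHR minus WKY, were below 0, with a median of -0.10 on the log2 scale, where 49.7% of all kept probe sets lay below 0 and their median was 0.00. Only 3 of the 8 stayed below 0 without SHR replicate 1, which had the lowest SHR signal at each of the 8.

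The arrays detected the members unevenly. Each array gives a probe set a signal and a call of Present, Marginal or Absent, and 5 member probe sets were Present on all 6 arrays, 3 on 4 arrays, 1 on 2 arrays and 4 on none. Penk, Pdyn, Oprk1 and Oprl1 had a kept probe set, and Pomc, Oprm1 and Oprd1 had none. As a check of the label of the tissue, the catecholamine neuron genes Th, Dbh and Pnmt were Present on all 6 arrays, while the noradrenaline transporter gene Slc6a2 was Absent on all. The share of probe sets called Present ran from 64.8% to 67.0% over the arrays. Over kept probe sets SHR replicate 1 correlated at 0.97 with both other SHR arrays and at 0.963 to 0.967 with the WKY arrays, and the other SHR arrays correlated with each other at 0.977.

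Penk, the precursor of Met-enkephalin and Leu-enkephalin, gave the brightest member probe set, 1367949_at, which aligns to chromosome 5 at 21834402 to 21839358 on the minus strand (Rnor5.0). Its log2 signal was 11.27, 12.01 and 12.08 in SHR replicates 1, 2 and 3, against 12.05, 12.08 and 12.25 in WKY replicates 1, 2 and 3. The strains overlapped, since SHR replicates 2 and 3 lay beside WKY replicates 1 and 2, and SHR replicate 1 stood 0.77 below the mean of the other 2 SHR animals. Means were 11.79 ± 0.45 for SHR animals and 12.13 ± 0.11 for WKY animals (± SD over 3 animals each), which gave a difference of -0.34 ± 0.17 (SE; limma, adjusted p = 0.6). The 95% interval of the difference ran from -0.73 to 0.05, that is from 0.604-fold to 1.03-fold of WKY. Without SHR replicate 1 the difference was -0.08, with an interval from -0.24 to 0.08.

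Pdyn, the precursor of the dynorphins, which act chiefly on the kappa receptor, had 2 kept probe sets on chromosome 3 (plus strand, Rnor5.0). Probe set 1383294_at, at 127821356 to 127822291, gave log2 signals of 8.61, 8.71 and 9.33 in the 3 SHR animals, against 8.77, 8.57 and 9.46 in the 3 WKY animals. Probe set 1369882_at, at 127818982 to 127820837, gave 5.10, 5.85 and 6.17 in SHR, against 6.06, 5.22 and 6.01 in WKY. The strains overlapped fully at both, and replicate 3 was the highest SHR animal at each. The differences were -0.05 ± 0.24 and -0.06 ± 0.40 (SE; limma, adjusted p = 0.972 and 0.981), with 95% intervals from -0.59 to 0.48 and from -0.93 to 0.82. Each set was Present on 2 of 3 SHR arrays and on 2 of 3 WKY arrays, and a difference within these intervals was not detectable against the spread between animals, which at 1383294_at was 0.39 in SHR and 0.47 in WKY (SD, log2 scale). Without SHR replicate 1 both differences turned positive, at 0.08 and 0.25.

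**Figure D1:**
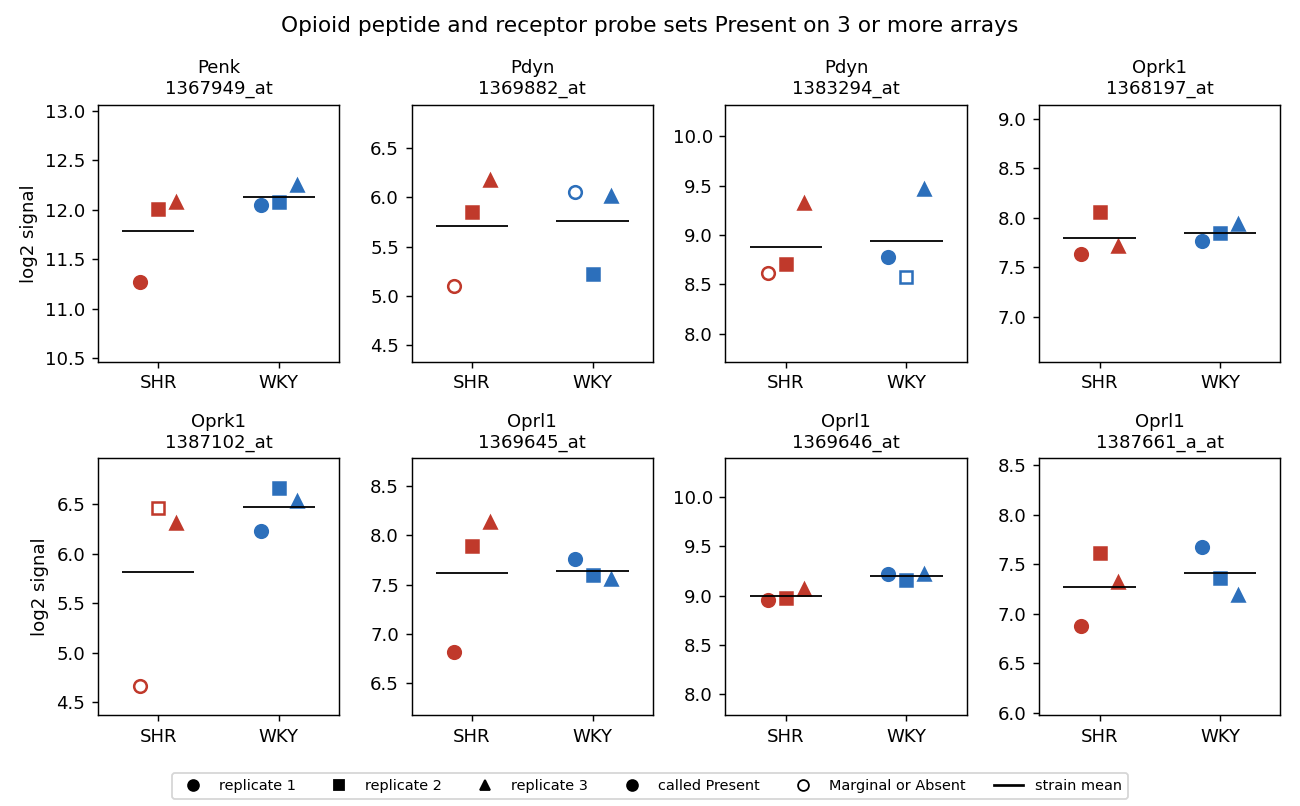
Log2 signal of each of the 8 kept member probe sets in 3 SHR and 3 WKY animals, with 1 symbol per animal, a line at each strain mean, filled symbols for Present calls and open ones for Marginal or Absent calls; each panel spans the same number of log2 units. SHR replicate 1 (red circle) is the lowest SHR animal in all 8 panels, and at Oprl1 1369646_at the strains do not overlap.

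Oprk1 encodes the kappa receptor, which the dynorphins bind, and its 3 probe sets share 1 alignment on chromosome 5, 18516569 to 18534375 on the minus strand (Rnor5.0). The only one Present on all 6 arrays, 1368197_at, gave log2 signals of 7.63, 8.05 and 7.71 in SHR, against 7.76, 7.85 and 7.93 in WKY. The SHR animals lay on both sides of the WKY animals, and the difference was -0.05 ± 0.16 (SE; limma, adjusted p = 0.96; 95% interval -0.41 to 0.32). Probe set 1387102_at gave 4.67, 6.46 and 6.31 in SHR, against 6.23, 6.67 and 6.53 in WKY, and was Present on 1 of 3 SHR arrays and on 3 of 3 WKY arrays. It had the largest difference among the kept sets, -0.67 ± 0.45 (SE; limma, adjusted p = 0.71), and without SHR replicate 1 this was -0.09. The size of this difference is uncertain, since SHR replicates 1 and 2 were called Absent. The remaining set, 1368198_at, was Absent on every array, with log2 signals of 3.50, 5.09 and 6.08 in SHR and 2.92, 2.92 and 3.10 in WKY.

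The strains did not overlap at 1368198_at, as they did not at 13.5% of all probe sets apart from controls. In the limma fit without a detection filter this set had an unadjusted p of 0.0356 and an adjusted p of 0.58, and 7.93% of all probe sets in that fit had an unadjusted p under 0.05. Since it was called Absent throughout, no fold and no direction are given for it.

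Oprl1 encodes the receptor for nociceptin, a peptide close to dynorphin that does not come from any of the 3 precursors above. Its 3 probe sets, on chromosome 3 at 180934325 to 180940179 (plus strand, Rnor5.0), were Present on all 6 arrays. Probe set 1369646_at gave log2 signals of 8.95, 8.97 and 9.06 in SHR, against 9.22, 9.16 and 9.22 in WKY. Every SHR animal lay below every WKY animal here, which made it the 1 kept member probe set of 8 whose strains did not overlap, beside 15.0% of all kept probe sets. Means were 8.996 ± 0.057 for SHR animals and 9.200 ± 0.035 for WKY animals (± SD over 3 animals each), and the difference of -0.20 ± 0.10 (SE) was not called (limma, adjusted p = 0.568; 95% interval -0.42 to 0.02).

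The other 2 Oprl1 sets did not show this separation. Probe set 1369645_at gave 6.82, 7.89 and 8.14 in SHR, against 7.76, 7.60 and 7.56 in WKY, so 2 SHR animals lay above all WKY animals and 1 lay below them. Its difference was -0.02 ± 0.30 (SE; limma, adjusted p = 0.99) and became 0.37 without SHR replicate 1 (adjusted p = 0.526). Probe set 1387661_a_at gave 6.87, 7.61 and 7.32 in SHR, against 7.67, 7.36 and 7.19 in WKY, a difference of -0.14 ± 0.23 (SE; limma, adjusted p = 0.902). The sets of this gene therefore disagreed in the order of the animals as well as in the size of the difference.

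**Figure D2:**
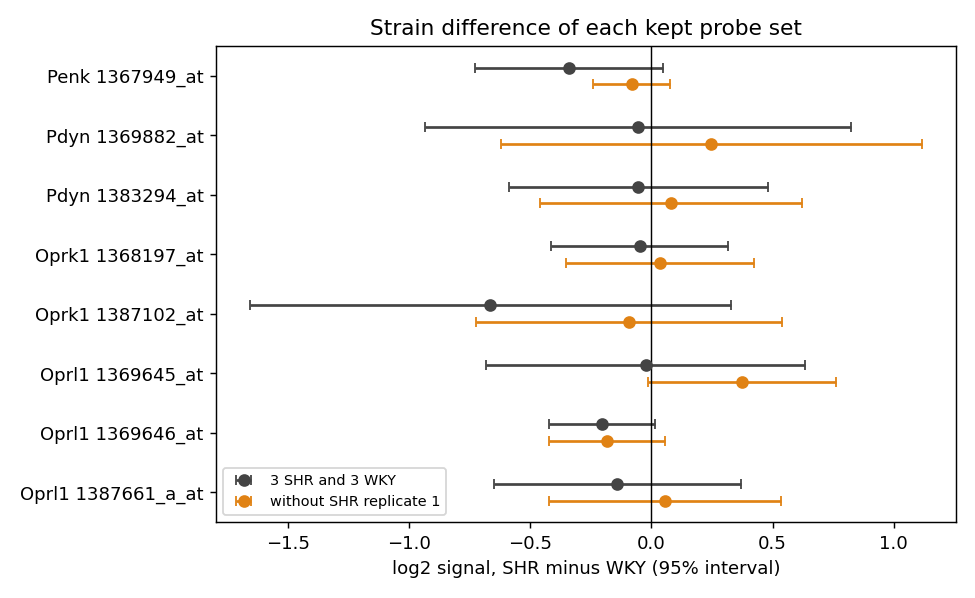
Log2 difference, SHR minus WKY, of each kept member probe set with its 95% interval from limma, over all 6 animals (grey) and without SHR replicate 1 (orange). All 8 grey points lie below 0 and 3 of the 8 orange points do, and every interval includes 0.

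Oprm1, Oprd1 and Pomc had no probe set that passed the detection filter. Oprm1 encodes the mu receptor, the main target of morphine and of beta-endorphin, and both of its sets align to chromosome 1 at 44804257 to 44857206 (plus strand, Rnor5.0). Probe set 1369109_at gave log2 signals of 3.32, 5.58 and 5.68 in SHR, against 2.82, 3.82 and 4.75 in WKY. It was Present in SHR replicates 2 and 3, Marginal in WKY replicate 2 and Absent on the other arrays, which is 2 of 3 SHR arrays and 0 of 3 WKY arrays Present. The strains overlapped through SHR replicate 1, and in the fit without a filter the difference of 1.06 ± 0.83 (SE), of uncertain size since no WKY array was Present, was not called (limma, adjusted p = 0.808). Probe set 1387461_at was Absent on all 6 arrays, and its signals ran from 3.73 to 5.93 in SHR and from 2.97 to 6.29 in WKY.

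Oprd1, the gene of the delta receptor for the enkephalins, was read by 1368791_at on chromosome 5 at 153962761 to 153997858 (minus strand, Rnor5.0). It was Absent on all 6 arrays, at 5.21, 2.23 and 5.27 in SHR and 4.90, 4.61 and 5.51 in WKY on the log2 scale. Pomc was read by 1384612_at on chromosome 6 at 38197290 to 38197852 (plus strand, Rnor5.0). It too was Absent on all 6 arrays, at 2.60, 1.86 and 5.63 in SHR and 4.20, 5.88 and 4.80 in WKY. At both genes the SHR animals spread over more than 3 log2 units and the strains overlapped. The fit without a filter called 0 of the 13 member probe sets, beside 0.445% of all probe sets apart from controls. Of 8 markers of the pituitary, the gland richest in Pomc RNA, 5 were Absent on all 6 arrays, among them the hormone genes Gh1, Prl and Cga, and 1 passed the filter. Their summed linear signal was 393 to 442 in SHR and 410 to 438 in WKY.

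**Figure D3:**
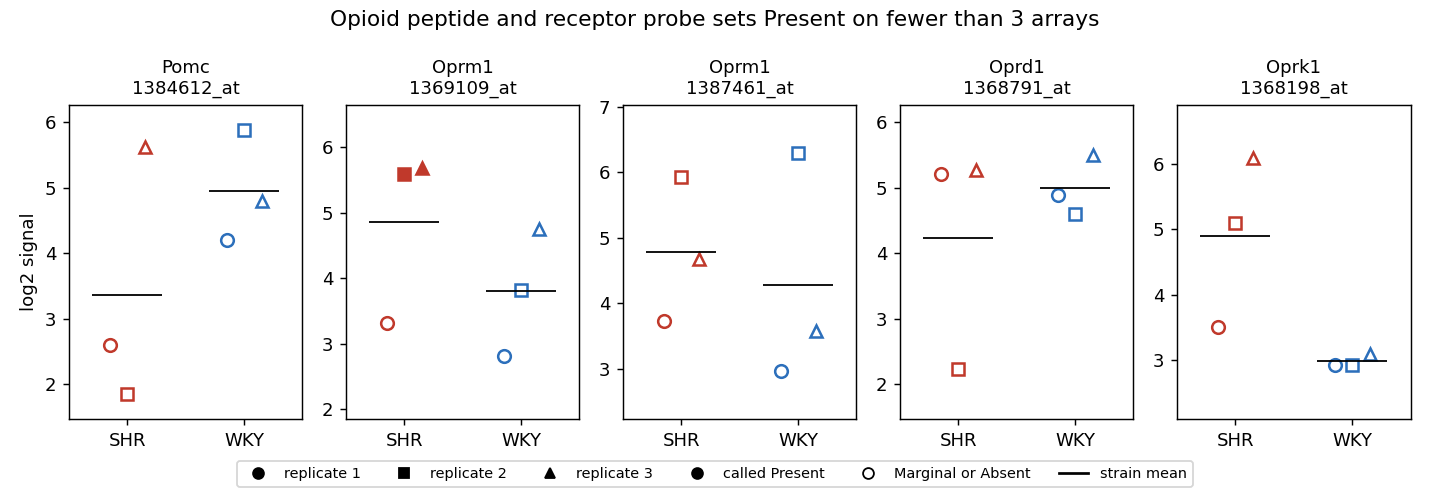
Log2 signal of the 5 member probe sets Present on fewer than 3 arrays, drawn as for the kept sets, with each panel spanning the same number of log2 units. Only Oprm1 1369109_at has Present calls (filled), in SHR replicates 2 and 3, and only at Oprk1 1368198_at, Absent throughout, do the strains not overlap.

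SHR replicate 1 was low across the family. This was seen in the values and then counted, and it carries no test. It had the lowest signal of the 3 SHR animals at 8 of 8 kept member probe sets and at 11 of all 13, the exceptions being Oprd1 and Pomc. Over all kept probe sets it was the lowest SHR animal at 36.6%, and sets of the same gene are not independent of each other. A low SHR replicate 1 was not particular to the members. It was the lowest SHR animal at 4 of 5 kept related opioid-system genes and 6 of 10 of propeptide processing. The same held at 5 of 6 peptidase genes, 15 of 24 of G proteins and effectors, and 4 of 14 of desensitization. The gap of SHR replicate 1 to the mean of the other 2 SHR animals was -0.77 log2 units for Penk and ran from -0.06 to -1.20 over the 3 Oprl1 sets. The largest gap among kept sets was -1.72, at Oprk1 1387102_at, and its size is uncertain because SHR replicate 1 was called Absent there. No WKY animal stood out in this way, since replicates 1, 2 and 3 were the lowest at 3, 3 and 2 of the 8 kept sets.

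Marker sums of several cell groups differed between animals, and SHR replicate 1 was not the only animal to stand apart. Catecholamine neuron markers summed to 2521 in SHR replicate 1, 3056 and 4452 in SHR replicates 2 and 3, and 2029 to 6834 in WKY. These markers did not move together. Th, Slc18a2 and Ddc in SHR replicate 1 differed by -0.92, -0.82 and -0.46 from the mean of the other SHR animals. Dbh and Pnmt went the other way, at 0.71 and 0.57 above that mean. SHR replicate 2 had the lowest astrocyte sum, 26904, beside 30992 to 33084 in WKY. Gfap was 11.26 there, beside 12.45 to 12.75 in WKY, and Aqp4, Aldh1l1 and Slc1a3 were also the lowest of the 6 arrays. Gja1 and Slc1a2 lay within the WKY range in that animal. SHR replicate 2 also had the highest sum of choroid plexus and ependyma markers, 1015, beside 462 to 495 in WKY. That sum rested on Ttr, at log2 signals of 6.51, 9.38 and 6.83 in SHR and 6.59, 6.62 and 6.60 in WKY. Of the other kept markers of that list, Kcnj13 was the highest of the 6 arrays in SHR replicate 2, at 7.09, and Folr1 the lowest, at 5.87. The summed linear signal of the 3 serotonin neuron markers on the array was 173 in SHR replicate 1, against 763 and 319 in SHR replicates 2 and 3, and lay between 203 and 588 in WKY. The marker that was lowest there against the other SHR animals was the serotonin transporter gene Slc6a4, at log2 signals of 6.03, 9.25 and 7.82 in SHR and 6.53, 8.37 and 8.84 in WKY, while Slc22a3 in SHR replicate 1 was 0.08 above the mean of the other SHR animals. The 6 markers of excitatory and inhibitory neurons summed to 9690 in SHR replicate 1, the lowest of the 6 arrays, and to 13195 and 11554 in the other SHR animals, beside 11385 to 12716 in WKY. The bright members Slc17a6, Gad1 and Slc32a1 were the lowest of the 6 arrays there, whereas Slc17a7 and Gad2 were 1.29 and 0.26 above the mean of the other SHR animals. In the opposite direction, 5 motor and cholinergic neuron markers summed to 14060 in SHR replicate 1, beside 7542 and 12360 in SHR replicates 2 and 3 and 6926 to 9203 in WKY. Chat, Slc18a3 and Slc5a7 in SHR replicate 1 were 0.83, 0.56 and 0.57 above the mean of the other SHR animals. Calca was not particular to that animal, at 12.01, 11.25 and 12.06 in SHR and 10.69, 10.67 and 11.29 in WKY. Its strain difference of 0.89 ± 0.22 (SE) was not called (limma, adjusted p = 0.122), and its other kept set differed by 1.03. The 5 cerebellar markers on the array summed to 4672 there, against 2794 and 2739 in the other SHR animals and 2600 to 3181 in WKY. That sum rested on Pvalb, a calcium-binding protein gene, at 11.94, 11.05 and 11.02 in SHR and 11.18, 11.25 and 10.88 in WKY. The other kept cerebellar markers, Pcp2, Calb1 and Neurod1, lay within the WKY range in SHR replicate 1, and the granule cell gene Gabra6 was Absent on all arrays. Their part in the low opioid signals was not tested. Of 13 marker lists, only the oligodendrocyte sum did not overlap between strains, at 72968 to 78218 in SHR and 79098 to 85341 in WKY (exact 2-sided permutation test, p = 0.1, the smallest that 3 against 3 animals allow), and after quantile normalization it overlapped too. Taken singly, 15.0% of all kept probe sets did not overlap either. Limma called no marker gene at its brightest kept set, but it called a dimmer set of the myelin gene Mobp, 1368263_a_at, lower in SHR at -0.99 ± 0.07 (SE; adjusted p = 0.000111), while the brightest set of Mobp differed by -0.17.

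The genes around the opioid family were grouped into 5 lists, and limma called 0 of their 59 kept genes at the brightest kept set, beside 0.924% of all kept probe sets. An unadjusted p under 0.05 was found for 5 of the 59, beside 9.52% of all kept probe sets, a share near the background. Of the 59, 43 lay below 0 and 16 above, with a median difference of -0.08, beside 49.7% below 0 and a median of 0.00 over all kept probe sets. In a fit of 10418 genes, each at its brightest kept set, 94 were called, 51.4% lay below 0 and the median was -0.0045. Without SHR replicate 1, 37 of the 59 lay below 0 and the median was -0.05. As for the members, most differences were small against the error.

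Of the 10 kept genes of propeptide processing, 6 lay below 0 and 4 above, and none was called. Pcsk2, the convertase that cuts proenkephalin and prodynorphin into active peptides, had log2 signals of 8.20, 8.72 and 8.72 in SHR, against 8.19, 8.13 and 8.18 in WKY. All 3 SHR animals lay above the WKY animals, SHR replicate 1 by the least, and the difference was 0.38 ± 0.16 (SE; limma, adjusted p = 0.48). At 15.0% of all kept probe sets the strains did not overlap either. The genes named here were those of smallest p in their lists, a choice that favours strains without overlap. Cpe, the carboxypeptidase that trims the cut peptides, differed by -0.10 ± 0.05 (adjusted p = 0.585). Of the 6 kept peptidase genes, 4 lay below 0 and none was called. Ece2, an endothelin-converting enzyme relative that cleaves neuropeptides, gave 9.04, 9.35 and 9.21 in SHR, against 9.50, 9.44 and 9.75 in WKY, without overlap (-0.36 ± 0.12, SE; adjusted p = 0.318), and its other kept set differed by -0.14. Prep, a prolyl endopeptidase, differed by -0.13 ± 0.11 (adjusted p = 0.786).

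Downstream of the receptors, 19 of 24 kept genes of G proteins, adenylyl cyclases and channels lay below 0, with a median of -0.12 and no call. Gng2 and Gnb1, which encode a gamma and a beta subunit, had the smallest p-values there, at -0.23 ± 0.13 and -0.13 ± 0.07 (SE; limma, adjusted p = 0.618 and 0.63). Of 14 kept genes that desensitize receptors or switch off their G proteins, 11 lay below 0 and none was called. Rgs19, which speeds GTP hydrolysis by inhibitory G proteins, gave log2 signals of 6.57, 7.47 and 7.36 in SHR, against 8.27, 7.95 and 7.96 in WKY. The strains did not overlap, as they did not at 15.0% of all kept probe sets. Rgs19 was Present on all 3 WKY arrays and no SHR array. It passed the detection filter through its WKY calls alone, so the filter favours a lower SHR signal here, and the size of the difference is uncertain because the SHR arrays were called Absent, Marginal and Absent. It was not called (limma, adjusted p = 0.151). Grk6, a kinase that phosphorylates activated receptors, differed by -0.27 ± 0.07 without overlap (adjusted p = 0.17), while its other 2 kept sets differed by -0.05 and 0.23. Rgs19 and Grk6 were named for the smallest p in their list, a choice that favours strains without overlap.

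Among 5 kept genes related to the opioid system by name or ligand, 3 lay below 0 and none was called. Opcml, a cell adhesion protein first isolated for opioid binding, differed by -0.21 ± 0.09 (SE; limma, adjusted p = 0.496) and by 0.02 at its other kept set, and Ogfrl1 by 0.14 ± 0.17 (adjusted p = 0.867). Pnoc, chosen after its values were seen because it encodes the peptide that Oprl1 binds, gave 7.65, 8.41 and 8.45 in SHR, against 8.16, 8.32 and 8.33 in WKY. SHR replicate 1 was again the lowest of the 6 animals, and the difference was -0.10 ± 0.21 (adjusted p = 0.923).

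**Figure D4:**
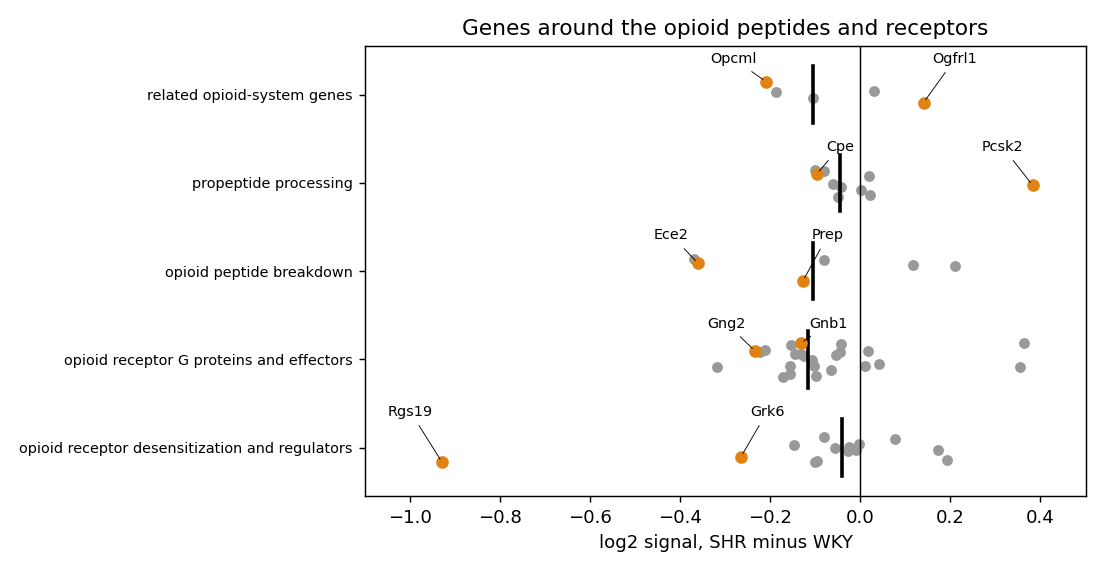
Log2 difference, SHR minus WKY, of each kept gene in the 5 lists around the opioid family, with the list median as a bar and the 2 genes of smallest p in each list in orange and named. None was called. Rgs19 was kept through its WKY calls alone, so its place on the axis is uncertain.

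The genes most like each kept member over the 6 arrays were found by Pearson's r of log2 signals, given as a description, since with 6 arrays many of the 10417 other genes come close. For Penk they were 6330403K07Rikl (r = 0.997) and Zfp687 (r = 0.994), and 212 genes passed r = 0.9. Both repeated the low SHR replicate 1, with 6330403K07Rikl at 11.05, 11.74 and 11.81 in SHR and 11.81, 11.77 and 11.94 in WKY. For Oprl1 1369646_at they were C1h11orf58 (r = 0.998) and Ext2 (r = 0.996), for Pdyn 1383294_at Spry1 and Ppp1r18 (both r = 0.978), and for Oprk1 1368197_at Ubap1l (r = 0.982) and Dsp (r = 0.976). None of these 8 genes was called between the strains by limma.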

How the data were processed

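The authors deposited log2 signals with a detection call per probe set, and a table of linear intensity values. MAS5 is named, with no version, in the submitters' processing notes. The log2 values equalled the log2 of the intensities floored at 1 within 8.18e-06. The mean intensity with 2% trimmed at each end was 500.14 on every array, so arrays had been scaled before deposit, and no further normalization was applied. Such signals are noisy near background. Of 31099 probe sets, 57 controls were left out, and those Present on at least 3 arrays were kept (67.0%). Strains were compared with limma 3.58.1 in R 4.3.3 (eBayes with a variance trend), Benjamini-Hochberg adjusted over the 20790 kept probe sets, after tests on simulated data. Members and gene lists were chosen with earlier results of these data known. Every member probe set is given. Each list gene is represented by its brightest kept probe set, and called genes and the 2 with the smallest p are named. Symbols were updated through a RefSeq table (GRCr8). No probe, protein or genome sequence was used here. Same-numbered animals did not deviate together (correlations 0.08, -0.01 and 0.07), so numbers were not treated as pairs. Samples were grouped by title. The limma p-values rest on the spread between 3 animals per strain, which limits precision. They do not measure that spread alone, since limma draws each variance towards a trend over all kept probe sets. Alternatives were other normalizations, pseudocounts, filters, variance models, 1 probe set a gene, a replicate block and leaving out each animal.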

Additional observations from a re-analysis of the deposited data

How the results depend on the processing

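No member probe set was called under any of the 17 alternatives in which it was tested, and the smallest adjusted p was 0.338, for a member with the replicate number as a block. No gene of the 5 lists was called under any of them either. With the replicate block 196 probe sets were called over the whole array, against 192 without it. That count was 63 without a variance trend and 94 with 1 probe set a gene, and ranged from 78 to 205 when 1 animal was left out (81, 81 and 78 without WKY replicate 1, 2 and 3). The number of kept member sets below 0 ranged from 3 to 8 of 8 when 1 animal was left out. Of 298 repeats of the differences tested with all animals (8 kept member sets and 10 list genes), 11 changed sign, all in members. Of 55 repeats of the 5 member sets that were not kept, 3 changed sign: Oprm1 1387461_at was -0.08 without SHR replicate 2 and -0.16 without WKY replicate 1, and Oprd1 was 0.23 without SHR replicate 2. Without SHR replicate 1 the difference was 0.034 for Oprk1 1368197_at, 0.37 for Oprl1 1369645_at and 0.056 for Oprl1 1387661_a_at, and these ranged from -0.18 to 0.034, -0.28 to 0.37 and -0.31 to 0.056 when 1 animal was left out. Pdyn 1369882_at ranged from -0.33 to 0.25 and was positive without SHR replicate 1 and WKY replicates 1 and 3, and Pdyn 1383294_at ranged from -0.28 to 0.21 and was positive without SHR replicates 1 and 2 and WKY replicate 3. Oprl1 1369645_at was also positive without WKY replicate 1, and was 0.0032 with a pseudocount of 64. The number of marker lists whose strains did not overlap was 0 under quantile normalization and ranged from 1 to 4 when 1 animal was left out, fewer animals making an overlap less likely. Detection limits the rest: Pomc, Oprd1 and Oprm1 lay near background, and of these only Oprm1 had Present calls, on 2 SHR arrays.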
